A study of Rattus norvegicus with 16 samples.

Results

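The small RNA libraries of sorted rat germ cells (GCs) were examined over the rat endogenous retroviruses (ERVs), the LTR retrotransposons that carry rat-specific names in the repeat annotation. Members were the repeat classes whose name begins with RN, IAP or ERVB, or carries the rat tag after ERV. A class pools all annotated copies of 1 repeat name. This gave 100 ERV classes of 997 repeat classes, after RNHAL1, a class named as a LINE element, was set aside from the 101 names that met the letters of the rule. Of the 100, 32 were internal rows and 68 were LTR rows, as read from their names, and together they held 50615 annotated copies and 29502.5 kb, 2.97% of the annotated repeat length in the rn5 genome. The samples came from male Sprague-Dawley rats fed from weaning to 19 weeks of age on a high fat diet (HFD, 40% of calories from fat by the sample labels) or a control diet (CD, 10%). The study's own text gives a higher fat share for the HFD than the labels do. All rats carried a germ cell eGFP transgene, by which the GCs were sorted, so each library is a mixture of the testicular germ cell stages that express it. There were 4 small RNA libraries per diet, and libraries are named here by diet and replicate number.

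An endogenous retrovirus is the inherited remnant of a retroviral insertion. A complete copy has an internal part, which held the viral protein genes, between a pair of long terminal repeats (LTRs), which hold the promoter and the polyadenylation signal; recombination between the LTRs often leaves a lone LTR. In the male germ line, transposon transcripts are a target of piRNAs, small RNAs bound by PIWI proteins. Many piRNAs are cut from long transcripts of genomic clusters, and a piRNA antisense to a transposon can guide its silencing. Intracisternal A particles (IAPs) are the best known active ERVs of rodents.

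Reads on repeat classes ranged from 2363595 to 3269169 per library, without a gap between the diets, and a count of 3, taken here as the detection limit, is at most 0.000127% of a library. No pair of libraries agreed within sampling noise, and HFD libraries 3 and 4 were the deepest. The count column of CD library 4 carries a run number other than that of its file, the one of HFD library 4, though with the CD name; its counts differ from those of HFD library 4, and the ERV share differed between diets by -0.0446 percentage points without it (exact permutation p = 0.229). Counts on ERVs were 76833, 73357, 103768 and 98611 in HFD libraries 1 to 4, and 83172, 93727, 90358 and 80250 in CD libraries 1 to 4. Both diets spanned much the same range. Of the 100 classes, 86 had a mean count of at least 1 (29 internal and 57 LTR), 10 had fewer reads and 4 (RNLTR14B, ERVB1_2-LTR_RN, ERVB1_3-LTR_RN and ERVB5_4-LTR_RN) had none in any library.

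Small RNA counts on ERVs were concentrated in a few classes. The 4 classes with the most counts, RNLTR10-int, RNLTR17-int, RNLTR18 and RNLTRE, held 58.6% of ERV counts (mean of 8 libraries) on 5.23% of the ERV length, and the 10 leading classes held 89.3%. The leading class was RNLTR10-int, an internal row of 1415 copies, which had 18483, 17014, 25452 and 23992 counts in HFD libraries 1 to 4 and 20537, 24371, 22506 and 18722 in CD libraries 1 to 4. RNLTR17-int, also internal, had 9568, 9381, 12426 and 12628 counts in HFD and 9735, 11707, 10880 and 10571 in CD. In both classes the HFD values enclosed the CD values, but these counts are not adjusted for depth. As TMM-normalised CPM (reads scaled to the effective library size), the CD values enclosed the HFD values. RNLTR10-int was at 7241.6 to 7837.2 CPM in HFD and 7241.4 to 8248.9 in CD, and RNLTR17-int at 3826.2 to 4011.4 and 3771.1 to 4088.7.

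**Figure D1:**
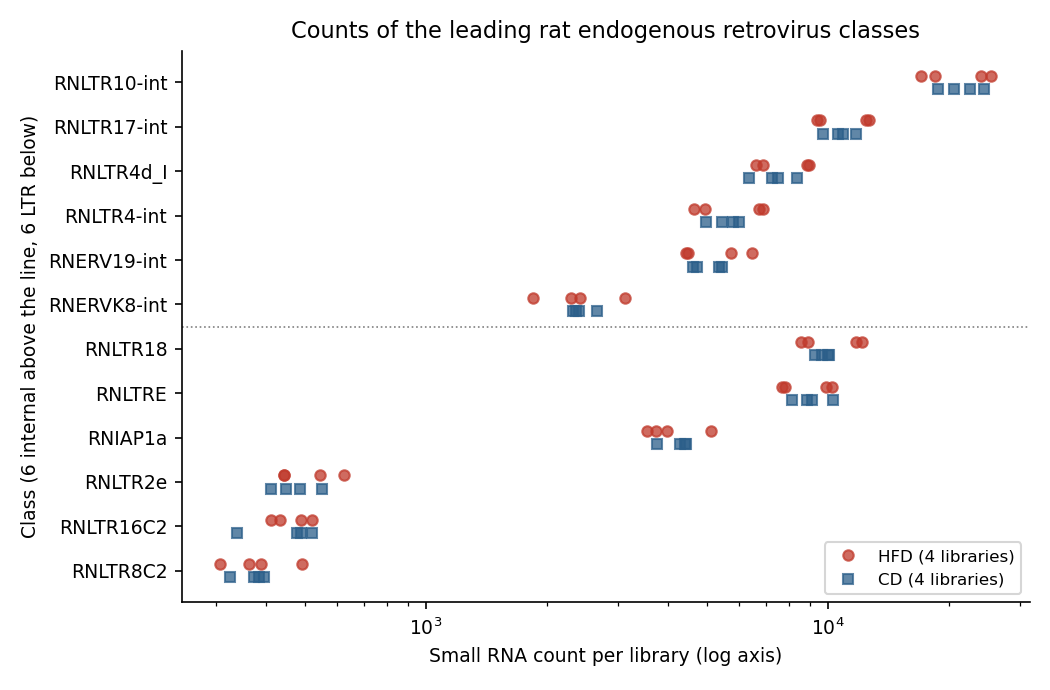
Small RNA counts per library (horizontal log axis) for the 6 internal and the 6 LTR rows with the most counts; circles are the 4 HFD libraries, squares the 4 CD libraries. RNLTR10-int lies between 17014 and 25452 and RNLTR8C2 between 308 and 491, and the diets overlap in every class shown.

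Among LTR rows, 2 short classes stood far above the rest. RNLTR18, with 455 copies, had 8893, 8567, 11757 and 12131 counts in HFD libraries 1 to 4 and 9266, 9983, 10024 and 9640 in CD. RNLTRE, with 127 copies, had 7659, 7803, 10255 and 9857 counts in HFD and 8879, 10291, 9143 and 8129 in CD. These 2 rows held 71.3% of all LTR counts, and their libraries overlapped between diets. The third was RNIAP1a, with 413 copies, at 3553 to 5121 counts. Its name carries no internal mark and it is counted here with the LTR rows, but RNIAP1aLTR has a row of its own. The median copy was 2145 bases for RNIAP1a and 368 for RNIAP1aLTR. The next rows, RNLTR2e, RNLTR16C2 and RNLTR8C2, had mean counts of 494.5, 460.0 and 378.4.

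The other leading internal rows were RNLTR4d_I, with 6373 to 8964 counts, RNLTR4-int, with 4648 to 6900, RNERV19-int, with 4427 to 6462, and RNERVK8-int, with 1845 to 3123. RNLTR4-int is the longest of them at 2971.1 kb. RNERVK8-int belongs by its name to the ERVK group, the retroviruses related to betaretroviruses, which includes the IAPs.

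Counts were then set against the annotated length of each class, since long classes can collect more reads. All repeats together had 2.79 ± 0.350 counts per kb (SD, n = 8 libraries; the SD includes the difference in depth). RNLTRE had 201.7 ± 24.0 counts per kb, RNLTR18 83.8 ± 10.7, RNLTR17-int 41.1 ± 4.85 and RNLTR10-int 19.2 ± 2.81. RNLTR4d_I followed with a mean of 8.66 and RNERV19-int with 6.85 ± 0.958, whereas RNLTR4-int, a long class with many counts, had 1.91 ± 0.282. Of the 4 LTR rows with the most counts per kb, RNLTR16C2 had 5.73 ± 0.770 and RNIAP1a, an LTR row by its name only, 4.34 ± 0.532. Only 10 of the 100 ERV classes, 5 internal and 5 LTR (RNIAP1a among them), lay above the mean of all repeats, against 155 of 897 other classes (17.3%). The median class had 0.404 counts per kb among internal rows, 0.119 among LTR rows and 0.0949 among the other repeat classes.

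**Figure D2:**
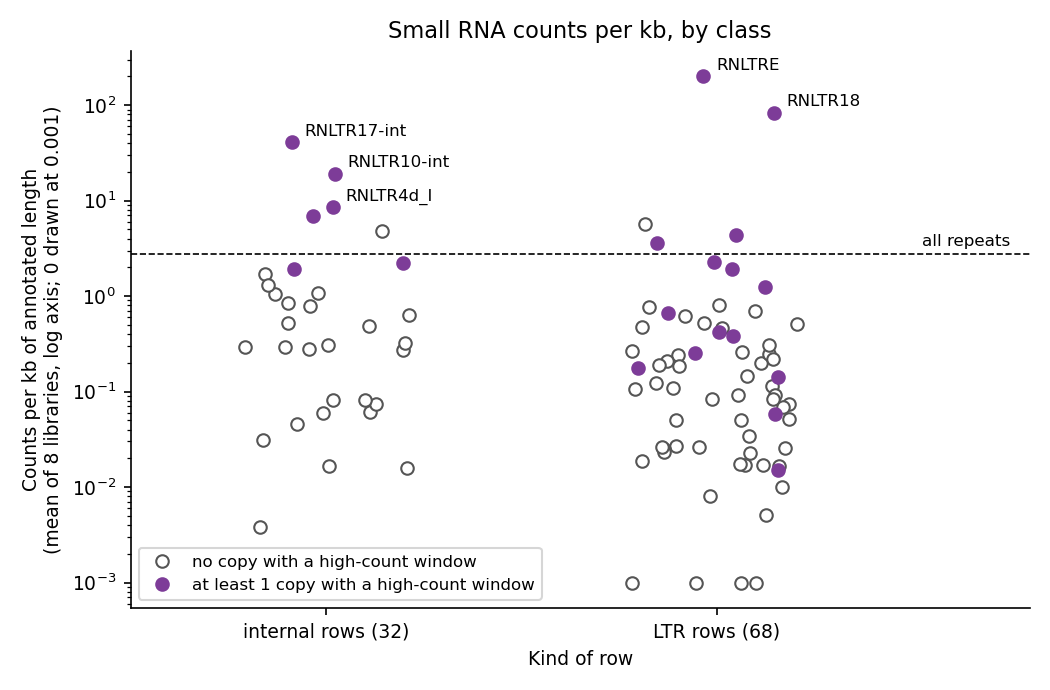
Mean counts per kb of annotated length (log axis, 8 libraries) for each of the 32 internal and 68 LTR rows; the dashed line is the mean of all repeats, 2.79, and filled points are classes with at least 1 copy that has a high-count window of listed piRNAs, as defined in the text. RNLTRE, RNLTR18, RNLTR17-int and RNLTR10-int stand above the rest, and the lowest row of points is at 0.

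Summed over classes, ERVs had 2.97 ± 0.367 counts per kb and the other repeats 2.79 ± 0.349. The ratio was 1.04 to 1.08 and above 1 in 8 of 8 libraries (mean log2 ratio 0.09; exact sign-flip test over libraries, two-sided p = 0.00781, the smallest that 8 libraries allow). The summed ratio depended on RNLTR10-int, without which the mean log2 ratio was -0.26; without all 4 leading classes it was -1.10, while the other repeats kept their own leading classes. By the median over rows, which single classes hardly move, ERVs were higher, at a mean log2 ratio of 0.87, and by counts per annotated copy at 1.12 (exact sign-flip tests, p = 0.00781 for both). The sign-flip tests show how well a ratio repeats between libraries, not its spread over classes. ERVs held 50615 of the 3434459 annotated copies and 2.97% of the length, so their copies were longer on average. The value per copy includes that difference in length.

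Internal rows held 69.5% ± 0.708 (SD, n = 8) of ERV counts on 62.2% of ERV length, and had 3.32 ± 0.435 counts per kb against 2.39 ± 0.258 for LTR rows. The ratio ran from 1.32 to 1.46 (mean log2 ratio 0.47; exact sign-flip test, p = 0.00781), with internal rows higher in 8 of 8 libraries. Without RNLTR10-int the ratio fell to between 0.922 and 0.979, below 1 in every library. Without the LTR rows RNLTR18 and RNLTRE it rose to between 4.34 and 5.40, and without all 4 leading classes it was 2.19 to 2.72. The summed ratio thus depended on single classes. By the median over rows, internal rows were higher at a mean log2 ratio of 1.77, and by counts per annotated copy at 2.40 (exact sign-flip tests, p = 0.00781 for both). These tests compare libraries, not classes, so their p does not measure the spread over classes. Internal rows held 15273 copies on 18351.6 kb and LTR rows 35342 copies on 11150.8 kb. The value per copy therefore includes the greater length of internal copies. With RNIAP1a and RNIAP1b moved to the internal rows, the mean log2 ratio was 0.52.

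**Figure D3:**
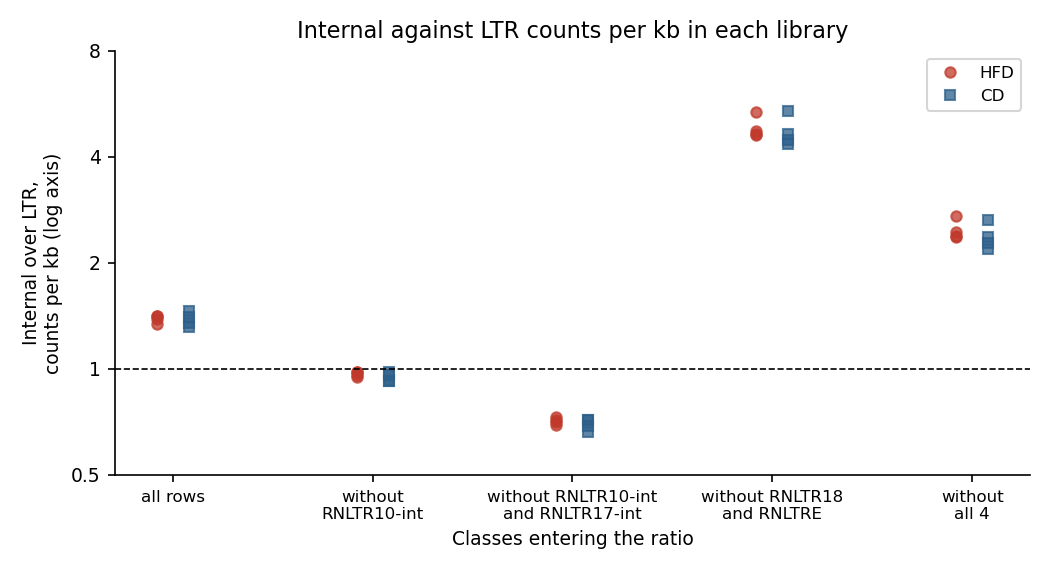
Ratio of internal to LTR counts per kb in each library (vertical log axis; circles HFD, squares CD) for all rows and after leaving out the classes named on the horizontal axis; the dashed line marks equal density. The ratio is 1.32 to 1.46 with all rows, 0.922 to 0.979 without RNLTR10-int and 4.34 to 5.40 without RNLTR18 and RNLTRE.

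Internal and LTR rows of the same element could be compared directly for 15 name stems, of which 10 had a mean count of at least 1 in both rows. In 9 of those 10, the internal row had more counts per kb than its own LTR in all 8 libraries; the exception was RNLTR3a, higher in 6 of 8. The gap was widest for the leading internal classes. RNLTR17-int had 41.1 counts per kb and its LTR, RNLTR17, 0.254 ± 0.0617, a 164-fold difference (geometric mean over libraries, 0.5 added to each count). RNLTR10-int had 19.2 and RNLTR10 0.142 ± 0.0285, a 135-fold difference. RNLTR4d_I had 8.66, and RNLTR4d, a row with only 2 to 6 counts per library, 0.191 ± 0.0623. The abundant small RNA of these elements was therefore counted on the internal part and little on the LTR that bears the same name. Only uniquely aligned reads were counted, so reads from near-identical LTR copies can be lost. Whether this widened the gaps was not tested. RNIAP1a likewise exceeded RNIAP1aLTR 3.45-fold in 8 of 8 libraries. The median difference was 2.74-fold over the 10 pairs and 2.36-fold over all 15. RNLTR18 and RNLTRE have no internal row of the same name in the annotation used.

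The name groups differed widely in level. The RNLTR names, 73 classes, held 82.8% of ERV counts at 3.59 ± 0.454 counts per kb. RNERV14-int and RNERV19-int held 6.18% at 5.44 ± 0.756, the 4 IAP classes 5.14% at 2.74 ± 0.329, and the 7 RNERVK classes 5.01% at 1.05 ± 0.160. The NICER pair had 0.842% at 0.433 ± 0.124. The 12 ERVB classes had 27 to 43 counts in all per library over 781.2 kb, 0.0456 ± 0.00780 counts per kb, the lowest of the name groups. Only uniquely aligned reads were counted, so classes with near-identical copies can lose reads. Whether this loss differed between name groups was not tested. Within the IAPs, RNIAP1a had 4.34 counts per kb and RNIAP1b 0.218 ± 0.0511, although both names denote IAP elements.

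Counts on repeat classes do not show which copy a read came from. The list of rat piRNAs counted in the same libraries gives positions, and 50830 of its 58165 entries have a single place in the genome. All listed entries are annotated on the plus strand and were counted in the reverse orientation, so these counts cover RNA from the minus strand alone, whereas repeat classes were counted on both strands. Of the single-place entries, 209 lay wholly inside an ERV copy, in 33 copies of 15 classes, and 197 of them lay in internal rows. Only 54 of the 209 had any count and 40 reached a mean count of 1. They took 0.454 to 0.529% of the counts of single-place entries, and internal copies held 99.6 to 99.8% of those counts. Listed piRNAs on LTR copies were thus nearly uncounted, although LTR rows held 22887 to 31191 ERV counts per library in the repeat tables.

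Most of these counts came from a pair of loci. The first was a run of RNLTR17-int pieces on the plus strand at chr4:231238588-231243648 (rn5), 5 pieces with 74 listed entries. They had 1938 to 2885 counts per library, 62.3% of all listed counts inside ERVs. The second was an RNLTR4d_I copy of 3611 bases on the plus strand at chr1:15707803-15711413, whose 5 entries had 825, 751, 1068 and 1138 counts in HFD libraries 1 to 4 and 901, 964, 905 and 737 in CD. A single entry at chr1:15709548-15709576 made up most of it, with a mean of 842.0 counts. An RNLTR3-int copy on the minus strand at chr16:48188193-48189069 was the third, at 231 to 454 counts. RNLTR10-int, the class with the most counts in the repeat tables, had 81 listed entries inside its copies but a mean of only 41.2 counts on all of them together.

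By strand, 97 entries lay in plus-strand copies and 112 in minus-strand copies. With minus-strand RNA counted, the former are antisense to the element and the latter sense. Entries in plus-strand copies had 33.6 ± 4.79 counts each and those in minus-strand copies 3.92 ± 0.802 (SD, n = 8 libraries). The ratio was 7.05 to 10.3, above 1 in 8 of 8 libraries (mean log2 ratio 3.11; exact sign-flip test, p = 0.00781). This rested on the RNLTR17-int and RNLTR4d_I copies, which held 87.4% of the listed counts inside ERVs. Without the entries of both, the 15 remaining entries in plus-strand copies had 1.67 ± 0.302 counts each and the 111 in minus-strand copies 3.96 ± 0.809, and the direction turned, with a ratio of 0.323 to 0.591, below 1 in 8 of 8 libraries. That reversed direction rested mostly on neighbouring minus-strand copies on chromosome 16, RNLTR3-int with a mean of 336.1 counts and RNLTR11-int with 58.9. No other minus-strand copy had a mean above 30.8. The direction without these copies was not tested. The test compares libraries, not loci. Entries in 1 copy share their source transcript, and plus-strand copies held 32 of the 40 entries that reached a mean count of 1. Of the 112 entries in minus-strand copies, 66 lay in 1 RNLTR10-int copy at chr12:49328429-49332033, with 0 to 2 counts together per library. In plus-strand copies, the 7 entries of an RNLTR17-int piece at chr4:231239604-231239684 had 0 counts. RNA from the plus strand was not counted, so values per entry also depend on which entries could be counted. The size of that effect was not tested.

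The surroundings of each copy were then examined, by a rule chosen after these values were seen. The counts of single-place listed piRNAs were summed over each copy and 10 kb on either side, and a sum of at least 1000 (mean of 8 libraries) was called a high-count window. Of the 50615 ERV copies, 47 had such a window (0.0929%), against 2296 copies of the other repeats (0.0679%). The 47 copies lay in 25 loci and belonged to 21 classes, 6 internal and 15 LTR. Those 21 classes held 88.4% of ERV counts and had a median of 1.94 counts per kb, against 0.106 for the other ERV classes. They were also the more numerous classes, with a median of 621 against 254 copies, so a copy in any given window was more likely among them.

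Each of the 4 leading classes had such a copy. For RNLTRE, a single one of its 127 copies had any listed piRNA within 10 kb. That copy, 417 bases on the plus strand at chr20:15899178-15899594, had 636 listed entries around it with 28886 to 39484 counts per library, 4.46% of the counts of all single-place entries, but no listed entry inside it. RNLTR18 had 3 such copies, the highest at chr20:8885807-8885899 with a mean of 8986 counts. RNLTR17-int had the 5 pieces on chromosome 4 described above, with up to 32763 counts, and RNLTR10-int had 1 copy, at chr3:152554234-152554691, with 13735. The repeat tables pool copies, so whether the reads of these classes came from these copies is not recorded in them. For RNLTR17-int, the listed counts inside the 5 pieces, from minus-strand RNA alone, equalled 20.2 to 22.8% of the class counts per library. The full share of the class that came from these pieces was not tested.

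**Figure D4:**
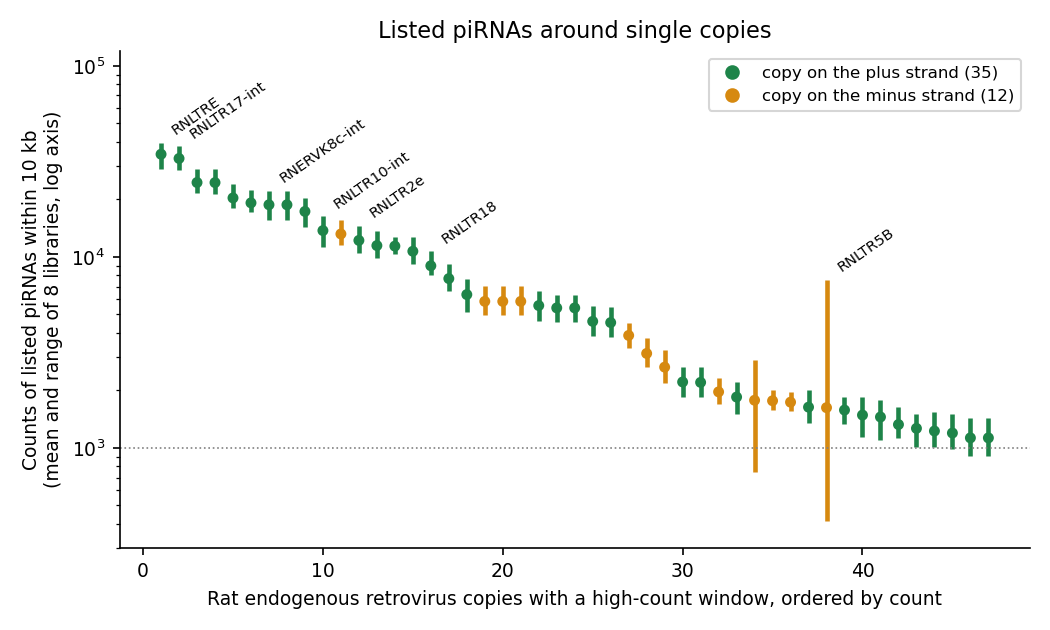
Counts of listed single-place piRNAs in and within 10 kb of each of the 47 ERV copies with a high-count window, ordered by mean (log axis); points are means and bars the lowest and highest of 8 libraries, and the dotted line is the limit of 1000. The copies on the plus strand (35) outnumber those on the minus strand (12), and RNLTR5B has the widest range, 415 to 7594.

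Further high-count windows held copies of other classes named above. An RNLTR4-int copy lay at chr5:117166579-117167054 with a mean of 18744 counts around it, an RNLTR2e copy at chr15:253156-253509 with 12200, and an RNIAP1a copy on chromosome 7 with 1266. On chromosome 1, between 15692119 and 15768796, RNLTR15A, RNLTR4d_I, RNLTR4-int, RNLTR8F and RNLTR10 copies, all on the plus strand, formed 3 neighbouring loci. Plus-strand copies made up 35 of the 47 (74.5%), against 53.6% of the copies of other repeats with such a window and 49.0% of all ERV copies. All 17 internal copies were on the plus strand, but they came from only 5 loci. By locus, 16 held plus-strand copies alone, 8 minus-strand copies alone and 1 both. Of the 10 classes above the all-repeat mean of counts per kb, 8 had a high-count window; RNLTR16C2 and RNLTR8C2_I had none.

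The question of the study design was whether diet changed the GC transcriptome. ERVs took 3.14% ± 0.0366 of repeat counts in HFD and 3.18% ± 0.0401 in CD libraries (SD, n = 4 each), a difference of -0.0476 percentage points (exact permutation test, two-sided p = 0.143; 4 against 4 libraries cannot give less than 0.0286). The internal share of ERV counts was 69.5% ± 0.529 in HFD and 69.4% ± 0.940 in CD (exact permutation p = 0.857). Of the 6 name groups, none passed the test after adjustment, and the lowest adjusted p was 0.771 (exact permutation tests, Benjamini-Hochberg over 6 groups), for the RNERV pair, at 6.28% ± 0.194 in HFD and 6.07% ± 0.164 in CD, and for ERVB, at 0.0373% ± 0.00993 and 0.0454% ± 0.00654. In sorted cells pooled per rat, fewer cells of a type and less RNA per cell cannot be told apart. Listed piRNAs inside ERV copies took 0.484% ± 0.0352 and 0.472% ± 0.00546 of single-place counts (exact permutation p = 0.629).

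By class, 0 of the 86 ERV classes tested passed an adjusted p of 0.05 in edgeR's quasi-likelihood test with Benjamini-Hochberg adjustment over all 755 repeat classes, of which 0.132% passed. At an unadjusted p under 0.05 there were 7 ERV classes (8.14%), 3 higher and 4 lower in HFD, where 3.58% of all repeat classes lay; DESeq2 gave 0 ERV calls and 3 ERV classes at that level, where it placed 1.59% of all classes. The median log2 fold change of HFD over CD was -0.01 over the ERV classes and 0.01 over all classes tested. For the 11 ERV classes with a mean count of at least 1000, log2 fold changes ran from -0.08 to 0.06 with standard errors of 0.03 to 0.13, so changes of the abundant classes were small and measured closely.

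**Figure D5:**
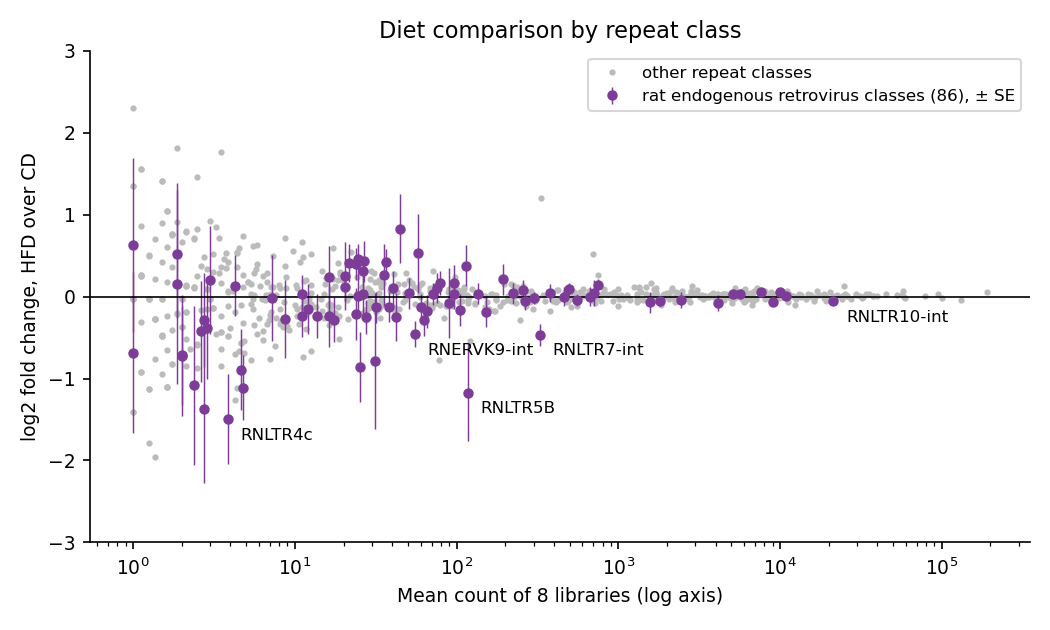
Log2 fold change of HFD over CD against mean count (log axis) for the 86 ERV classes tested (filled points, with the standard error derived from the edgeR F statistic) and the other repeat classes (small grey points; 1 other class lies outside the axis). The abundant classes lie near 0, with RNLTR10-int at -0.05, and the widest departures are at low counts or with wide errors, as for RNLTR4c and RNLTR5B.

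The lowest unadjusted p belonged to RNLTR7-int, an internal row of 1042 copies. It had 316, 207, 336 and 246 counts in HFD libraries 1 to 4 and 342, 416, 383 and 364 in CD libraries 1 to 4. As TMM-normalised CPM (reads scaled to the effective library size), all 4 HFD libraries were below all CD libraries, at 99.7 ± 22.2 against 137.3 ± 4.19 (log2 fold change -0.46 ± 0.13 SE, edgeR adjusted p = 0.992). Without HFD library 1, its log2 fold change was -0.61 and its edgeR adjusted p 0.0532. At 129.0 CPM, that library was the HFD library nearest to CD (132.5 to 140.8), so leaving it out widened the difference. RNLTR7-int did not pass with any library left out. With all 8 libraries, the DESeq2 adjusted p was 0.402 without and 0.409 with shrinkage. RNERVK9-int, with 37, 31, 67 and 54 counts in HFD and 62, 61, 74 and 54 in CD, was the only other tested ERV class with HFD libraries all below CD on that scale, at 16.5 ± 3.18 against 22.9 ± 2.62 CPM (edgeR adjusted p = 0.992). This order was seen in 0.795% of all repeat classes tested. RNNICER3-int, RNLTR7a and RNLTR21 had HFD libraries all above CD, as did 1.46% of all classes. These 5 of 86 classes (5.81%) compare with 2.25% of all repeat classes tested whose libraries did not overlap between diets. None passed the adjusted test. RNLTR3-int, the most abundant of the 7 classes with a low unadjusted p, had 284.3 ± 12.9 CPM in HFD and 256.9 ± 16.2 in CD (log2 fold change 0.15 ± 0.07 SE, edgeR adjusted p = 0.992).

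The other 2 classes under an unadjusted p of 0.05 had few reads. ERVB5_4-I_RN-int had 2, 3, 3 and 4 counts in HFD and 3, 8, 7 and 8 in CD. RNLTR4c had 2, 0, 2 and 4 in HFD and 3, 7, 8 and 5 in CD, at 0.676 ± 0.527 against 2.07 ± 0.706 CPM (edgeR log2 fold change -1.50 ± 0.55 SE, adjusted p = 0.992). In both classes the libraries of the diets overlapped. RNLTR7a, named above, with 27, 27, 32 and 29 counts in HFD and 20, 22, 17 and 23 in CD, is named after the same stem as RNLTR7-int and had the opposite sign. RNLTR19A, whose unadjusted p was 0.0690, an LTR row with 22 to 33 counts in HFD and 15 to 27 in CD, had a log2 fold change of 0.40 ± 0.20 SE (edgeR adjusted p = 0.992). Of the 40 listed piRNAs inside ERV copies that could be tested, 0 passed in edgeR (0% of the 7818 entries tested did). In the same test 4 (10%) had an unadjusted p under 0.05, against 2.99% of all entries. All 4 lay in the RNLTR17-int run on chromosome 4 and were higher in HFD, with mean counts of 1.25 to 53.5, so they are 1 locus. DESeq2 gave 0 calls and 0 at that level.

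Spread between rats differed widely between classes. The coefficient of variation of normalised counts over the 8 libraries was 2.75% for RNLTR17-int, 3.78% for RNERV19-int and 3.81% for RNLTR18. The 11 ERV classes with a mean count of at least 1000 had a median of 4.78%, near the 4.38% of the 210 other classes at that level. Between 100 and 1000 counts, the 18 ERV classes had a median of 12.6% and the 110 other classes 7.78%.

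The 6 widest spreads among ERV classes with a mean count of at least 10, picked after their values were seen, were those of RNLTR3d, RNLTR5B, RNLTR5, RNLTR3a, RNLTR12 and RNERVK3-int, at 52.0 to 98.5%. RNLTR5B had 154, 42, 49 and 38 counts in HFD libraries 1 to 4 and 228, 197, 202 and 31 in CD libraries 1 to 4, so that CD library 4 was the lowest of all and HFD library 1 was high (log2 fold change -1.17 ± 0.59 SE, edgeR adjusted p = 0.992). Without CD library 4, the library with the conflicting number, the log2 fold change was -1.51 ± 0.47 SE (adjusted p = 0.982). RNLTR3d had 66, 2, 12 and 11 in HFD and 70, 64, 18 and 8 in CD. RNLTR5 had 22, 8, 18 and 25 in HFD and 23, 23, 20 and 62 in CD (log2 fold change -0.86 ± 0.43 SE), and RNLTR3a 82, 18, 35 and 95 in HFD and 35, 26, 36 and 29 in CD (0.83 ± 0.42). Neither passed the adjusted test (edgeR adjusted p = 0.992 for both). RNLTR12 had 78, 16, 91 and 92 in HFD and 62, 18, 76 and 27 in CD, with high and low libraries in both diets. RNERVK3-int had 148, 38, 96 and 69 in HFD and 131, 135, 54 and 49 in CD. The high-count window of the RNLTR5B copy at chr11:84419495-84419935 rested on 1 listed piRNA, outside the copy, with 7594 counts in HFD library 3 and 415 to 1784 in the other libraries; that pattern is not the one of the RNLTR5B class counts.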

How the data were processed

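Small RNA was sequenced from FACS-sorted germ cells of 8 rats. Per the file headers and the study's methods, the authors trimmed adaptors with Trimmomatic, aligned reads to rn5 with Butter, which runs on Bowtie, and counted reads of mapping quality 1 or more with featureCounts 1.4.6; the deposited values are raw counts per repeat class (both strands) or per listed piRNA (reverse strand only). The methods state that uniquely aligned reads were counted, so near-identical copies can lose reads, and a read that touches 2 features is not assigned. The miRNA files do not cover repeats and were not used, nor were the mRNA files, whose gene identifiers matched 0 symbols in the table at hand, so piRNA pathway genes and cell type markers were not analysed here.

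Groups came from the sample labels. Rows with a name ending in -int, or with I between separators, were internal and the rest LTR. RNERV14-int and RNERV19-int were kept. Members and lists were chosen with earlier results of these data known. Named classes were the 6 internal and 6 LTR rows with most counts, the 4 and 4 with most counts per kb among rows of at least 5 kb, and the 3 and 3 with the lowest edgeR p; others are said to be picked later or are rows of the same stem, group or locus. Counts per kb divide by the summed length of all copies. Diet was tested with edgeR 4.0.16 (TMM, quasi-likelihood, mean count of at least 1, adjusted p of 0.05) over all classes; DESeq2 1.42.0 was an alternative. Single values had exact permutation tests over libraries, and ratios within libraries exact sign-flip tests. Overlaps used bedtools 2.31.1. On simulated counts with 193 of 731 repeat classes changed by a log2 fold change of 1, edgeR recovered 140 with 3 false calls; with 194 of 7664 piRNA entries changed as much, it recovered 94 with 8 false calls. The study describes the libraries as coming from separate animals, while the labels give only replicate numbers. The detection limit covers counting error only; SDs and SEs are over libraries.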

Additional observations from a re-analysis of the deposited data

Results flagged for a closer look

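In 3 of 60 sets of 4 libraries of 1 diet that were examined, 1 library stood apart from the other 3 by Dixon's criterion; chance gives about 1 in 20. RNLTR18 was at 3854 CPM (TMM-normalised) in HFD library 4, against 3620 to 3646 in the other HFD libraries. RNLTRE was at 3321 in HFD library 2, against 3127 to 3158 in the others. The RNERV pair took 6.316% of ERV counts in CD library 3, against 5.97 to 6.02% in the other CD libraries. Each of the 3 values is above its group; 3 different libraries are involved.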

How the results depend on the processing

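No ERV class passed the adjusted threshold under any alternative run (DESeq2 with or without shrinkage, DESeq2 size factors, other filters, robust fit, replicate block, or leaving out each library). No listed piRNA inside an ERV copy passed with shrunken DESeq2, DESeq2 size factors, a mean count of at least 10, the block or each library left out. Of the comparisons that passed, the higher count per kb of internal rows reversed without RNLTR10-int (log2 ratio -0.0652) and without RNLTR10-int and RNLTR17-int (-0.51), and that of ERVs over other repeats reversed without RNLTR10-int (-0.26) and without the 4 leading classes (-1.10); both had p = 0.00781 in exact sign-flip tests under every alternative over 8 libraries. By the median over rows and per annotated copy, internal rows stayed above LTR rows (1.77 and 2.40, against 0.47) and ERVs above other repeats (0.87 and 1.12, against 0.09). The values per copy include the longer copies of internal rows and of ERVs, so they are no separate check of counts per kb. The plus over minus ratio of listed piRNAs (3.11) reversed without the RNLTR17-int and RNLTR4d_I entries (-1.24). The reversed value rested mostly on the minus-strand copies on chromosome 16. The ratio was 3.41 without the entries of RNLTR17-int alone and 3.06 without the 10 entries with the most counts. Alternatives added after seeing the data were those without named classes, RNIAP1a and RNIAP1b as internal, and without RNERV14-int and RNERV19-int.

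Diet differences, in percentage points, did not pass the test in any setting, and some changed sign. The internal share (0.102) was -0.0990 with RNIAP1a and RNIAP1b as internal and -0.235 to 0.477 with each library left out. The RNLTR share (0.0586) was -0.0493 with RNHAL1 included and -0.484 to 0.596 with each library left out. Leaving out a library also gave -0.293 to 0.111 for RNERVK, -0.502 to 0.0263 for IAP, -0.0526 to 0.107 for NICER and -0.00343 to 0.0216 for listed piRNAs inside copies. RNLTR16C2, at a log2 fold change of 0.000718, was -0.000956 with DESeq2 and shrinkage, -0.00315 without shrinkage, -0.00265 with DESeq2 size factors, -0.00339 without a filter and -0.000611 at a mean count of at least 10. With each library left out, log2 fold changes near 0 changed sign for RNLTR16C2 (-0.0985 to 0.105), RNLTR17-int (-0.0110 to 0.0278), RNLTR4-int (-0.000743 to 0.0668), RNERVK8-int (-0.110 to 0.0331) and RNLTR8C2 (-0.0256 to 0.124); the other named classes kept their sign. The cause was not tested.

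The replicate numbers were not taken as pairs. Deviations of same-numbered libraries correlated at -0.047 to 0.115 over all repeat classes and at 0.402, 0.108, -0.199 and 0.192 over ERV classes for numbers 1 to 4, and 4 of 8 libraries correlated best with their own number. With the number as a block, 0 ERV classes passed and 11 had an unadjusted p under 0.05 (12.8%; 4.37% of all repeat classes under the same fit), against 7; the exact tests by pair cannot go below 0.125, and the ERV share, lower in HFD in 4 of 4 numbered pairs, gave p = 0.125. Precision falls with count: at mean counts of 10 to 100 the 39 ERV classes had a median coefficient of variation of 23.0% (20.2% for 135 other classes), so only large changes could have been detected there.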
